A study of Mus musculus with 28 samples.

Results

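Pou5f1, Sox2 and Klf4 are the 3 reprogramming factors (OKS) that were delivered by retrovirus to mouse embryonic fibroblasts (MEFs), and they are 3 of the 50600 genes in the RNA-seq table examined here. They were picked by gene name and not by any measured value. The table has 1 value per gene and library, so each value adds the transcripts of the transgene to those of the cell's own gene. The study asked how the timing of p38 inhibition affects the reprogramming of MEFs into induced pluripotent stem cells (iPSCs), with SB203580 as the inhibitor (p38i). RNA was sequenced in 28 libraries, 2 for each of 14 groups. The MEF group was untreated and the MEF_p38i group had received the inhibitor, and neither carried the viruses. The other 12 groups were sampled on days 1, 3, 5 and 7 of induction in the iCD1 medium, and all of them had received the 3 viruses. In the control arm (called DMSO in the study, ctr in the labels) no inhibitor was given, in the p38i arm it was given during induction only, and in the pre-p38i arm it was given before induction and replaced by the solvent from then on. The cells were primary MEFs of labelled genotype WT that carried a GFP reporter of Oct4. The labels do not say whether the libraries of a group came from separate cultures, so the p-values measure the spread between these libraries, which may be technical.

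Oct4, the product of Pou5f1, is a POU-domain transcription factor that pluripotent cells need, and it binds many enhancers together with Sox2, an HMG-box factor. Klf4 is a zinc-finger factor of the Krüppel-like family that can repress fibroblast genes and switch on epithelial ones, and unlike the other two it is also expressed in many somatic tissues. The pMXs retroviral vectors used here enter the genome of dividing cells and express the factor from a viral promoter, which pluripotent cells silence by histone and DNA methylation as their own Pou5f1 and Sox2 genes come on. The sum of transgene and own transcripts is therefore what reprogramming cells contain, but it does not say which source it came from.

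The 3 own genes lie on different chromosomes of GRCm38. Pou5f1 (ENSMUSG00000024406) covers chromosome 17 from 35506018 to 35510772 on the plus strand, Sox2 (ENSMUSG00000074637) covers chromosome 3 from 34650405 to 34652461 on the plus strand within the long noncoding gene Sox2ot, and Klf4 (ENSMUSG00000003032) covers chromosome 4 from 55527143 to 55532466 on the minus strand. No other annotated gene shared a stretch of 200 nt at 95% identity with any of them. Shorter stretches, which could also share reads, were not examined. The study measured its own-gene Oct4 with the primer pair below, and the pair is shown because it marks a stretch that a transgene made of the coding sequence alone would lack in part. The letters that lie in the 5′ untranslated part of the transcript are in capitals, those in the coding part in lower case.
Oct4 forward: TAGGTGAGCCGTCTTTCCAC
Oct4 reverse: gcttagccaggttcgaggat
The forward primer matched chromosome 17 from 35506048 to 35506067, upstream of the first coding base at 35506100, and the reverse primer matched the opposite strand from 35506188 to 35506207 inside the coding part. The product spans 160 nt, and each primer was found in 1 of 6 annotated Pou5f1 transcripts. A gene-level value draws on the whole transcript, of which the coding part is 1056 of 1362 nt in Pou5f1, 957 of 2057 nt in Sox2 and 1449 of 3029 nt in Klf4, so the table cannot make the split that this primer pair makes.

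The DNA upstream of the 3 own genes is shown because only Klf4 had a value above 1 in MEFs. The lines give the 250 bases before the RefSeq start site (GRCm38.p6), 5′ to 3′ on the gene's strand, with every CpG (the letters CG, which read the same on both strands) in capitals.
Pou5f1, chr17:35505782-35506031, plus strand: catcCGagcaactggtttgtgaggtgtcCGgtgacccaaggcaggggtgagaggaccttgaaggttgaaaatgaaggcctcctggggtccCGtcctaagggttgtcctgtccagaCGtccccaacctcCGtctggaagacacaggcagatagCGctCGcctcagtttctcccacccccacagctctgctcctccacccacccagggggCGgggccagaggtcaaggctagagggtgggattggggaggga
Sox2, chr3:34649745-34649994, plus strand: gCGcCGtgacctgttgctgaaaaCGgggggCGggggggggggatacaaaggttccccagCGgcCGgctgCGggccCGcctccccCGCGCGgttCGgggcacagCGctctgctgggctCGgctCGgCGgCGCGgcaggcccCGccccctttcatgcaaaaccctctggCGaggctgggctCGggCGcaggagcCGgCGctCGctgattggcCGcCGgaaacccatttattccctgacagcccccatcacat
Klf4, chr4:55532476-55532725, minus strand: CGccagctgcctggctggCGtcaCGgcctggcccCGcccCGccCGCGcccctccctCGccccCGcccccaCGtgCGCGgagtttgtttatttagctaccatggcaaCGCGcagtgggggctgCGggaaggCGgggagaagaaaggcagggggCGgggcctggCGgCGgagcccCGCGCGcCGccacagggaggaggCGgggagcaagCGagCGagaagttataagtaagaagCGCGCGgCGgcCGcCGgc
Pou5f1 had 8 CpG in this window, Sox2 27 and Klf4 32, against a median of 6 over the 32817 promoters in the RefSeq table. At least as many CpG as in Pou5f1 were found in 43.0% of all promoters, at least as many as in Sox2 in 8.57%, and at least as many as in Klf4 in 4.59%. How CpG number relates to the values in MEFs was not tested. The RefSeq start of Sox2 lies 410 bases upstream of the GENCODE gene start, that of Pou5f1 14 bases and that of Klf4 9 bases away from it. No methylation was measured in these libraries.

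Without the viruses, the factors were at 0 or low. All 4 MEF libraries listed Pou5f1 at 0. Sox2 was listed at 1 and 0 in MEF and at 0 and 0 in MEF_p38i. Klf4 was listed at 17 and 20 in MEF and at 20 and 20 in MEF_p38i, so the groups overlapped. Each library holds whole numbers with a total of 991287 to 992537, read here as TPM (each transcript's share of its library, corrected for length) rounded down, a unit that keeps no trace of depth, so depth is unknown and no counting error can be given. Differences are given as differences of the mean log2(value + 1) with their standard error (SE) from a single limma fit of all 28 libraries and 13230 genes, and a gene is called where its Benjamini-Hochberg adjusted p is under 0.05. The scale hardly touches the factors during induction but understates changes of genes with low values. Klf4 differed by 0.11 between MEF_p38i and MEF (SE 0.083, 95% interval -0.0625 to 0.28, adjusted p = 0.415, limma), where 17.9% of all genes were called. The MEF libraries carried the markers of their label. In the untreated MEF libraries all 10 fibroblast markers reached 1 and summed to 15957 to 16757. Markers of other cell types were also present, with 10 of 11 macrophage markers reaching 1 (summed value 278 to 288), 3 of 6 neural markers (130 in both), 2 of 6 epithelial markers (8 to 10) and 1 of 6 endothelial markers (2 in both). Of the epithelial markers Epcam, Cdh1, Krt8 and Cldn3 were at 0.

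On day 1 of induction the 3 factors were already among the most abundant transcripts. Over the 24 induction libraries Pou5f1 ranged from 1915 to 3846 and ranked between 14 and 70 among all genes of its library. Sox2 ranged from 752 to 1327 (rank 103 to 200) and Klf4 from 569 to 870 (rank 165 to 259). The summed values of the 3 factors took 0.333% to 0.607% of a library. In bulk RNA, fewer cells with a transgene and less RNA per cell cannot be told apart, and this holds for every difference below.

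**Figure D1:**
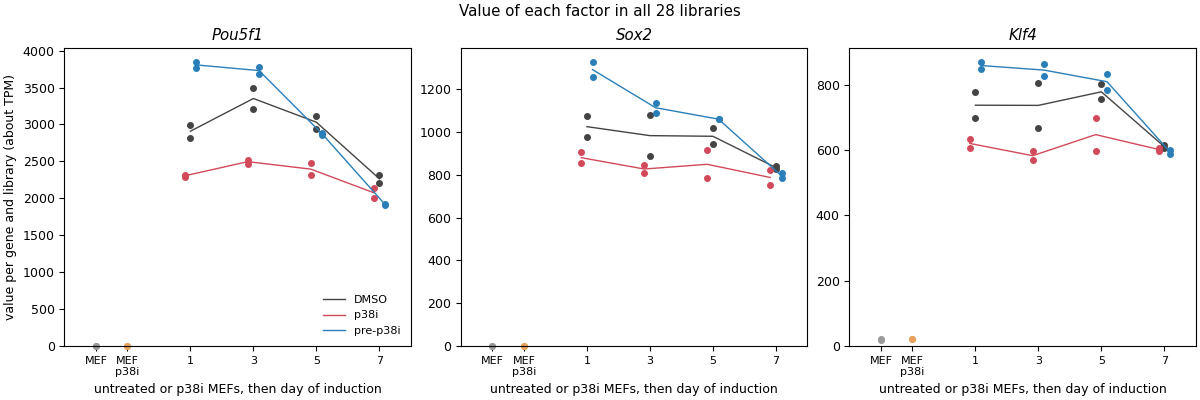
Value of Pou5f1, Sox2 and Klf4 (vertical axis from 0, about TPM) in each library of MEF, MEF_p38i and the 3 arms on days 1, 3, 5 and 7. Points are libraries and lines join the group means; pre-p38i starts above DMSO and p38i below it, and the arms lie close together on day 7.

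In the control arm Pou5f1 was highest on day 3, and Pou5f1 and Klf4 were called lower on day 7 than on day 5. Pou5f1 had values of 2996 and 2822, 3488 and 3216, 2944 and 3117, and 2214 and 2316 on days 1, 3, 5 and 7. Both libraries of day 3 lay above every other day and both of day 7 below. Pou5f1 rose by 0.20 from day 1 to day 3 (SE 0.045, adjusted p = 0.00105, limma; 44.5% of all genes were called), then fell by 0.14 to day 5 (adjusted p = 0.0299; 19.4%) and by 0.42 to day 7 (adjusted p = 1.58e-06; 26.7%). The call for the step to day 5 was lost without DMSO_d3 replicate 1 (-0.086) or DMSO_d5 replicate 1 (-0.10). After quantile normalization neither the rise to day 3 (0.13, adjusted p = 0.0539) nor the step to day 5 (-0.038, adjusted p = 0.664) was called. Sox2 had values of 1075 and 975, 1080 and 886, 942 and 1018, and 842 and 825 on those days. The first 3 days overlapped and day 7 lay below them. Klf4 stood at 777 and 697, 806 and 667, 755 and 801, and 615 and 605 on the same days. Day 7 was again the lowest, with no overlap with the other days. Both libraries of day 7 lay below both of day 5 for all 3 factors, as they did for 32.2% of all genes. Klf4 fell by 0.35 from day 5 to day 7 (SE 0.083, adjusted p = 0.00388, limma). Without DMSO_d5 replicate 2 that difference was -0.31 (adjusted p = 0.0505). Sox2 differed by -0.23 over the same step, which was not called (SE 0.18, adjusted p = 0.377).

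Pre-treatment with p38i was followed by more Pou5f1 than in DMSO on days 1 and 3 and less on day 7, while Sox2 and Klf4 were called on no day. On day 1 Pou5f1 had values of 3768 and 3846 in pre-p38i against 2996 and 2822 in DMSO, Sox2 of 1256 and 1327 against 1075 and 975, and Klf4 of 870 and 847 against 777 and 697. For each factor both pre-p38i libraries lay above both DMSO libraries, as they did for 21.7% of all genes, while for 20.1% both lay below. Pou5f1 was higher by 0.39 (1.31-fold, SE 0.045, adjusted p = 1.12e-05, limma), while 11.6% of all genes were called. The differences of Sox2 (0.33, 95% interval -0.044 to 0.71, adjusted p = 0.272) and Klf4 (0.22, 0.048 to 0.40, adjusted p = 0.0943) were of like direction but not called.

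On day 3 Pou5f1 stood at 3774 and 3686 in pre-p38i, Sox2 at 1137 and 1090, and Klf4 at 862 and 827. All again lay above the DMSO libraries of that day, as did 33.9% of all genes. The difference of Pou5f1 had shrunk to 0.16 and was called (SE 0.045, adjusted p = 0.0192, limma), beside 20.6% of all genes. That call was lost without DMSO_d3 replicate 2 (0.097), pre-p38i_d3 replicate 1 (0.14) or replicate 2 (0.17). Leaving out 1 library leaves 1 in its group and widens the SE, so a call can be lost while the difference holds. The call was also lost when libraries were scaled to equal median ratios (0.089, adjusted p = 0.12, limma). Sox2 differed by 0.19 (adjusted p = 0.52) and Klf4 by 0.20 (adjusted p = 0.0909), and without DMSO_d3 replicate 1 the Klf4 difference was 0.34 and called (adjusted p = 0.0161).

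On day 5 the arms lay closer together. Pou5f1 had values of 2886 and 2862 in pre-p38i, just under both DMSO libraries, and Sox2 of 1059 and 1061, just over them (21.9% of all genes lay below and 31.2% above without overlap). Klf4, at 834 and 784, overlapped DMSO. None of the 3 was called (differences of -0.076, 0.11 and 0.056; adjusted p = 0.24, 0.698 and 0.674, limma), while 25.6% of all genes were. With median-ratio scaling Pou5f1 was called lower in pre-p38i (-0.15, adjusted p = 0.00801). On day 7 Pou5f1 stood at 1918 and 1915, Sox2 at 783 and 807, and Klf4 at 600 and 588, in each case below both DMSO libraries, as did 24.0% of all genes. Pou5f1 was lower by 0.24 on the log2 scale, 0.846 of its DMSO level (SE 0.045, adjusted p = 0.000439, limma), beside 29.9% of all genes. The gaps of Sox2 (-0.068, 95% interval -0.45 to 0.31) and Klf4 (-0.038, -0.21 to 0.14) were not called. Fitted with only the groups compared, the day 7 call of Pou5f1 held, but those of day 1 (adjusted p = 0.0801) and day 3 (adjusted p = 0.202) did not.

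**Figure D2:**
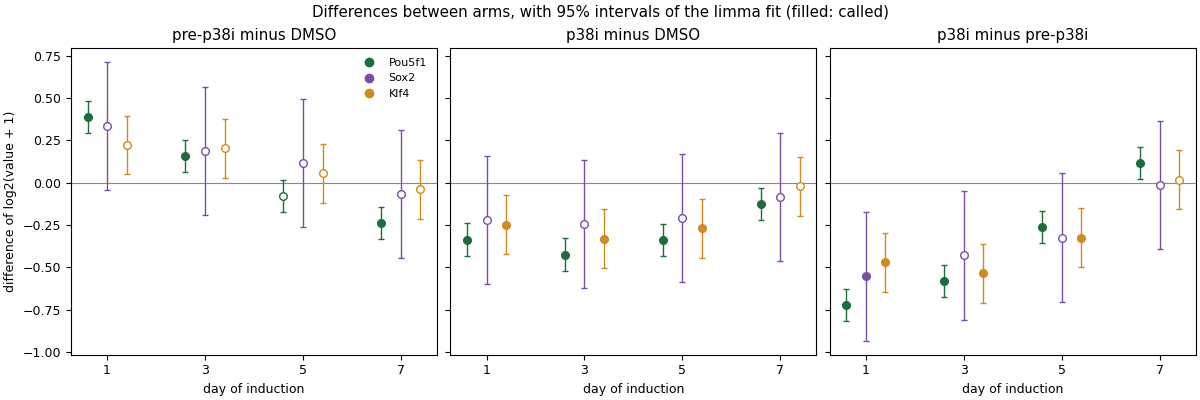
Difference of log2(value + 1) between arms (vertical axis) on each day (horizontal axis) for the 3 factors, with 95% intervals from limma; filled points are called. The Pou5f1 difference between pre-p38i and DMSO goes from 0.39 on day 1 to -0.24 on day 7, and the Sox2 intervals are the widest in every panel.

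With p38i during induction Pou5f1 was lower than in DMSO on all 4 days and Klf4 on days 1, 3 and 5, while Sox2 was called on no day. Pou5f1 had values of 2314 and 2295, 2523 and 2470, 2472 and 2319, and 2008 and 2144 over the 4 days. Every one of these libraries lay below both DMSO libraries of its day, as did 33.8%, 33.3%, 34.2% and 30.3% of all genes on days 1, 3, 5 and 7. The differences were -0.34, -0.42, -0.34 and -0.13 on the 4 days (SE 0.045; adjusted p = 3.3e-05, 1.14e-06, 1.4e-05 and 0.037, limma), where 16.1%, 21.4%, 26.6% and 34.1% of all genes were called. The level was 0.745 of that in DMSO on day 3, its lowest, and 0.916 on day 7. The day 7 call was lost without DMSO_d7 replicate 2 (-0.094, adjusted p = 0.239) or p38i_d7 replicate 1 (-0.079, adjusted p = 0.305).

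In p38i Klf4 had values of 635 and 605, 596 and 569, 698 and 596, and 596 and 607. It lay below DMSO without overlap on days 1, 3 and 5 and overlapped it on day 7. Klf4 was lower by 0.25, 0.33 and 0.27 on days 1, 3 and 5 (SE 0.083; adjusted p = 0.0486, 0.00672 and 0.0211, limma), and its difference on day 7 was -0.020 (95% interval -0.19 to 0.15, adjusted p = 0.891). These calls were lost when some single libraries were left out, which leaves 1 library in the group and widens the SE. The one of day 1 was lost without DMSO_d1 replicate 1 (-0.17), p38i_d1 replicate 1 (-0.28, a larger difference) or replicate 2 (-0.21). The one of day 3 was lost without DMSO_d3 replicate 1 (-0.20) or p38i_d3 replicate 2 (-0.30), and the one of day 5 without DMSO_d5 replicate 2 (-0.23) or p38i_d5 replicate 2 (-0.16). Sox2 had values of 905 and 855, 847 and 807, 914 and 784, and 752 and 823, below both DMSO libraries on every day, again beside 30.3% to 34.2% of all genes. Its differences of -0.22, -0.24, -0.21 and -0.083 were not called (SE 0.18; adjusted p = 0.469, 0.38, 0.437 and 0.765). Fitted with only the groups compared, no p38i call of Pou5f1 or Klf4 against DMSO held, with adjusted p from 0.057 to 0.226.

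Set against each other, the treated arms differed in all 3 factors on day 1, in Pou5f1 and Klf4 on days 3 and 5, and in Pou5f1 alone, with the order turned, on day 7. On day 1 Pou5f1 was 0.72 lower in p38i than in pre-p38i, 0.606 of its level (SE 0.045, adjusted p = 6.57e-10, limma), Sox2 0.55 lower (SE 0.18, adjusted p = 0.0274) and Klf4 0.47 lower (SE 0.083, adjusted p = 0.000254), so that all 3 were called beside 28.2% of all genes. On day 3 Pou5f1 (-0.58, adjusted p = 5.42e-09) and Klf4 (-0.54, adjusted p = 3.58e-05) were called lower and Sox2 was not (-0.43, adjusted p = 0.0641), beside 42.2% of all genes. The median difference of all genes was itself -0.16 on that day, the most in any comparison. With median-ratio scaling, set on genes with a mean of at least 10, Pou5f1 differed by -0.45 and Klf4 by -0.41, both still called. On day 5 Pou5f1 (-0.26, adjusted p = 8.28e-05) and Klf4 (-0.33, adjusted p = 0.00316) were called lower, Sox2 not (-0.32, adjusted p = 0.152), beside 47.5%. By day 7 the order of Pou5f1 had turned: p38i was 0.11 higher than pre-p38i (adjusted p = 0.0386, 54.3% of all genes), while for Sox2 (-0.015) and Klf4 (0.018) the libraries overlapped. The Sox2 call of day 1 was lost without any 1 of its 4 libraries (-0.59 to -0.51), the Klf4 call of day 5 without p38i_d5 replicate 2 (-0.21), and the Pou5f1 call of day 7 without p38i_d7 replicate 2 (0.067) or pre-p38i_d7 replicate 1 (0.12) or 2 (0.11).

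The fall of Pou5f1 from day 1 to day 7 differed between the arms. In pre-p38i Pou5f1 went from 3768 and 3846 to 1918 and 1915, 50.3% of its day 1 mean, and in DMSO and p38i the day 7 mean was 77.9% and 90.1% of that on day 1. Pou5f1 fell by 0.99 in pre-p38i (adjusted p = 2.54e-13, limma; 63.6% of all genes were called), by 0.36 in DMSO (adjusted p = 1.23e-06; 54.6%) and by 0.15 in p38i (adjusted p = 0.00801; 54.9%). The fall in p38i was not called without p38i_d7 replicate 1 (-0.10). Sox2 kept 61.6% of its day 1 mean in pre-p38i, where the fall of 0.70 was called (adjusted p = 0.00231), 81.3% in DMSO and 89.5% in p38i. Klf4 kept 69.2% in pre-p38i (fall of 0.53, adjusted p = 1.51e-05), 82.8% in DMSO (fall of 0.27, adjusted p = 0.00956) and 97.0% in p38i (-0.043, adjusted p = 0.686). Without DMSO_d1 replicate 1 (-0.19) or DMSO_d7 replicate 2 (-0.26), the DMSO fall of Klf4 was not called.

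Tested as a difference of differences, the fall of Pou5f1 was 0.63 deeper in pre-p38i than in DMSO (value -0.63, SE 0.064, adjusted p = 1.17e-06, limma), where 16.7% of all genes were called. In p38i it was 0.21 shallower than in DMSO (adjusted p = 0.0242; 21.6%) and 0.84 shallower than in pre-p38i (adjusted p = 3.76e-09; 40.5%). The comparison of p38i with DMSO was not called without DMSO_d1 replicate 1 (0.17), DMSO_d7 replicate 1 (0.18), p38i_d1 replicate 1 (0.22) or 2 (0.20), or p38i_d7 replicate 2 (0.16), nor with median-ratio scaling (0.15, adjusted p = 0.0601). Klf4 fell less in p38i than in pre-p38i, by 0.49 (SE 0.12, adjusted p = 0.00245), and its differences from DMSO were not called (-0.26 in pre-p38i, adjusted p = 0.143, and 0.23 in p38i, adjusted p = 0.186). For Sox2 no such difference was called (-0.40, 0.14 and 0.54; adjusted p = 0.319, 0.759 and 0.103). The comparisons share libraries, so these values are not independent of each other.

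Step by step, the fall of Pou5f1 and Klf4 in pre-p38i came after day 3. Between days 1 and 3 Pou5f1 differed by -0.030 and Klf4 by -0.024, neither called, beside 43.5% of all genes. From day 3 to day 5 Pou5f1 fell by 0.38 (adjusted p = 5.52e-06, limma; 24.1%), and from day 5 to day 7 Pou5f1 fell by 0.58 (adjusted p = 9.32e-09; 28.9%) and Klf4 by 0.44 (adjusted p = 0.000393). In p38i Pou5f1 rose by 0.12 from day 1 to day 3 (adjusted p = 0.047; 41.9%), a call that was lost without any 1 of the 4 libraries (0.10 to 0.13) and that turned to -0.077 after quantile normalization. The p38i arm then differed by -0.060 to day 5 (not called; 15.8%) and Pou5f1 fell by 0.21 to day 7 (adjusted p = 0.00909; 6.23%), a call lost without p38i_d5 replicate 1 or p38i_d7 replicate 1 (both -0.16).

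Averaged over the 4 days, p38i lay below pre-p38i by 0.36 for Pou5f1, 0.33 for Sox2 and 0.33 for Klf4 (adjusted p = 3.84e-11, 0.00347 and 1.01e-06, limma), beside 65.2% of all genes. Against DMSO, Pou5f1 (-0.31, adjusted p = 1.52e-09) and Klf4 (-0.22, adjusted p = 0.000246) were lower in p38i, beside 47.9%, and Sox2 was not called (-0.19, adjusted p = 0.0939). Pre-p38i differed from DMSO by 0.057 for Pou5f1 (adjusted p = 0.0472) and 0.11 for Klf4 (adjusted p = 0.0361), beside 45.0%. The average hides the crossing of the arms, and both of these calls were easily lost. For Pou5f1 the value turned to -0.0094 after quantile normalization and was 0.0081 with median-ratio scaling, and the call held only without replicate 1 of DMSO_d1 or DMSO_d3 or replicate 2 of DMSO_d5 or DMSO_d7 (0.042 to 0.0715 over all 16 libraries left out in turn). For Klf4 the value was 0.062 with median-ratio scaling (adjusted p = 0.192), and the call was lost without a filter (adjusted p = 0.0932). It was also lost without DMSO_d1 replicate 2, DMSO_d3 replicate 2 (0.077), DMSO_d5 replicate 1, either replicate of DMSO_d7 or replicate 1 of pre-p38i on any day (0.077 to 0.14 over all 16).

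Sox2 was called in 3 of 30 tests although its differences were close in size to those of Klf4. Its SE of 0.18 came from the untreated MEF libraries, which list it at 1 and 0, since these 2 values lie a whole log2 unit apart. Fitting the 24 induction libraries alone, a choice made after seeing the data, gave Sox2 an SE of 0.0821 and calls in 15 of 30 tests, against 25 for Pou5f1 (27 with the MEF libraries) and 14 for Klf4 (14 with them). Sox2 was then called higher in pre-p38i than in DMSO on day 1 (0.33, adjusted p = 0.0135, limma) and lower on day 3 in p38i than in DMSO (-0.24, adjusted p = 0.0436). It was called lower in p38i than in pre-p38i on days 3 (adjusted p = 0.000437) and 5 (adjusted p = 0.00361), lower on day 7 than on day 1 in DMSO (adjusted p = 0.00545), and its fall was called deeper in pre-p38i than in DMSO (-0.40, adjusted p = 0.024) and in p38i (0.54, adjusted p = 0.00125). Neither arm was called different from DMSO for Sox2 on day 7 in this fit either (adjusted p = 0.574 and 0.474).

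Ordered by mean level, pre-p38i on day 1 stood first for each factor, at 3807 ± 55.2 (SD, n = 2) for Pou5f1, 1292 ± 50.2 for Sox2 and 859 ± 16.3 for Klf4. For Pou5f1, pre-p38i on day 3 followed at 3730 ± 62.2, within the spread of the first, then DMSO on day 3 at 3352 ± 192. DMSO on day 5 (3031 ± 122), DMSO on day 1 (2909 ± 123) and pre-p38i on day 5 (2874 ± 17.0) came next and each lay within the spread of its neighbour. The p38i groups of days 3, 5 and 1 (2497 ± 37.5, 2396 ± 108 and 2305 ± 13.4) and DMSO on day 7 (2265 ± 72.1) formed another run without gaps beyond their spread. The lowest were p38i on day 7 (2076 ± 96.2) and pre-p38i on day 7 (1917 ± 2.12), each apart from its neighbours. Of the 11 pairs of neighbours in this order, 6 differed by no more than their spread (overlapping libraries, or a gap no larger than the sum of their SDs). For Sox2 this held for 8 of 11 pairs, and its lowest groups were pre-p38i (795 ± 17.0) and p38i (788 ± 50.2) on day 7. For Klf4 it held for all 11, and the lowest was p38i on day 3 (583 ± 19.1). The highest group mean was 1.99 times the lowest for Pou5f1, 1.64 times for Sox2 and 1.47 times for Klf4.

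The factors kept their order of Pou5f1 over Sox2 over Klf4 in every induction library, on the TPM scale, which is per length. Sox2 lay between 27.6% and 42.1% of Pou5f1, Klf4 between 20.7% and 31.3% of Pou5f1, and Klf4 between 63.8% and 80.1% of Sox2. Both ratios to Pou5f1 were lowest on day 3 in DMSO and highest on day 7 in pre-p38i. Sox2 was 35.2% ± 0.941 (SD, n = 2) of Pou5f1 in DMSO on day 1, then 29.3% ± 2.41, 32.3% ± 0.469 and 36.8% ± 1.70. In pre-p38i the same ratio was 33.9% ± 0.827, 29.8% ± 0.393, 36.9% ± 0.267 and 41.5% ± 0.931, and in p38i 38.2% ± 1.31, 33.1% ± 0.636, 35.4% ± 2.24 and 37.9% ± 0.662. In each arm the lowest ratio was that of day 3, and day 7 in pre-p38i lay above every other library. These ratios are descriptions and were not tested. TPM divide by the whole annotated transcript, whereas a transgene may hold only the coding part, and rescaled to coding length the group ratios of Sox2 to Pou5f1 were 48.7% to 69.1% and those of Klf4 to Pou5f1 35.5% to 50.2%, with the order of the factors unchanged.

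**Figure D3:**
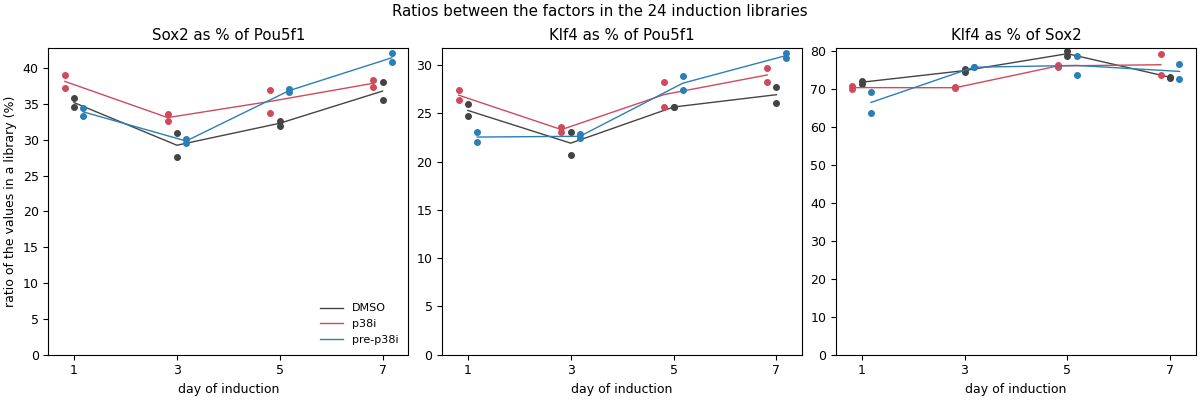
Ratio of the values of 2 factors within a library (vertical axis from 0, in %) by day of induction (horizontal axis) in the 24 induction libraries. Points are libraries and lines join group means; Sox2 relative to Pou5f1 is lowest on day 3 in each arm, and the ratios of Sox2 and Klf4 to Pou5f1 reach 41.5% and 31.0% in pre-p38i on day 7, while Klf4 relative to Sox2 varies less.

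Within a group, the factors tended to deviate together in DMSO and p38i, but in pre-p38i only on day 3. In 8 of the 12 induction groups the library with more Pou5f1 also had more Sox2 and more Klf4, and Sox2 and Klf4 deviated to the same side in 9 of 12. The exceptions were pre-p38i on days 1, 5 and 7 and, for Pou5f1 only, DMSO on day 7. How often other genes deviate together was not computed. In DMSO on day 3, where replicate spread was widest, Sox2 was 1080 and 886 and Klf4 806 and 667, yet their ratio was 74.6% and 75.3%. The SD of the Klf4 to Sox2 ratio had a median of 0.697% of its mean, against medians of 3.95% for Sox2 and 3.35% for Klf4 themselves, and it was smaller than that of both genes in 8 of 12 groups. The ratio, in percent of Sox2, had an SD of 3.85, 3.44 and 2.66 in pre-p38i on days 1, 5 and 7. It was 3.89 in p38i on day 7 and at most 1.04 in the other groups.

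Other members of the 3 families stayed far below the delivered factors. Of 14 other POU genes, 9 were at 0 in all libraries, and the highest was Pou6f1 with a group mean of 36.5 at most. Of 19 other SOX genes the highest was Sox13, at 2 and 1 in MEF, 133 in DMSO on day 7 and up to 141 in pre-p38i on day 5. Of 16 other KLF genes the highest were Klf6, at 130.0 in MEF and 38.5 in DMSO on day 7, and Klf3, which reached 118 in pre-p38i on day 3. On day 7 against DMSO, 1 of 3 POU genes tested (Pou6f1, 0.47, adjusted p = 0.0377, limma), 3 of 8 SOX genes (Sox21 0.64, Sox11 0.53 and Sox4 0.42) and 2 of 13 KLF genes (Klf2 1.13 and Klf13 0.65) were called higher in pre-p38i, and Klf6 lower (-0.40). In p38i, Pou2f1 (-0.58), Klf2 (-0.95), Klf5 (-0.79) and Klf8 (-0.70) were called lower, and Sox4 (0.69) and Klf6 (0.35) higher. These counts stand beside 29.9% and 34.1% of all genes called.

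Next to the own genes, the noncoding Sox2ot that contains Sox2 was at 0 in MEFs and on day 7 at 7 and 8 in DMSO, 9 and 9 in pre-p38i, but 14 and 15 in p38i. It was called higher in p38i than in DMSO (0.87, SE 0.29, adjusted p = 0.024, limma), while Sox2 itself was not called. Of 7 tested neighbours of the 3 loci, 1 was called higher in pre-p38i on day 7 (Zfp462, 0.48, adjusted p = 0.0372), beside 15.4% of all genes. In p38i 4 were called lower, beside 17.6%, Tcf19 (-0.51) and Cchcr1 (-0.42) next to Pou5f1, Atp11b near Sox2 (-0.46) and Rad23b near Klf4 (-0.27, with means of 162 in DMSO and 135 in p38i). Sox2ot shares the strand of Sox2 and spans it, but no annotated Sox2ot transcript shared a stretch of 200 nt at 95% identity with Sox2. Shorter shared stretches were not examined.

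Factors known to silence retroviruses were for the most part more abundant in pre-p38i and less abundant in p38i than in DMSO on day 7. The list holds TRIM28 and SETDB1 with their partners, the HP1 proteins (Cbx1, Cbx3, Cbx5), DNA and histone methyltransferases and the CAF-1 chaperone, and like all lists here it was drawn up with earlier results of these data known. On day 7, 14 of the 22 members tested were called higher in pre-p38i than in DMSO and none lower, beside 15.4% and 14.5% of all genes, with a median difference of 0.34 against 0.053 over all genes. Uhrf1, which recruits the maintenance DNA methyltransferase, stood at 95 and 98 in DMSO and 153 and 150 in pre-p38i (0.65, adjusted p = 4.23e-07, limma). Hdac1, a histone deacetylase, stood at 191 and 192 against 263 and 278 (0.50), and the histone methyltransferase gene Suv39h2 at 9 and 8 against 14 and 12 (0.56). In p38i 14 were called lower and 1, Ehmt2, higher (0.21), beside 17.6% and 16.5% of all genes, with a median of -0.39 against 0 over all genes. Uhrf1 was at 41 and 42 there (-1.20, adjusted p = 1.42e-10) and Dnmt1, the maintenance enzyme, at 52 and 56 against 91 and 87 (-0.71). Dnmt3b, a de novo enzyme, was at 2 and 0 against 7 and 6, and called lower. It passed the filter mainly through DMSO and pre-p38i on day 7, with means of at most 2.5 elsewhere.

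The calls in this list increased over the days, as did those over all genes. In pre-p38i 1 member was called higher and 1 lower on day 1 (5.40% and 6.24% of all genes), against 12 higher on day 3 (13.8%) and 14 on day 5 (14.3%) and none lower on either (6.87% and 11.3%), while the difference of Pou5f1 from DMSO went from 0.39 on day 1 to -0.24 on day 7. In p38i 5, 6 and 12 members were called lower and none higher on days 1, 3 and 5, beside 12.6%, 16.2% and 18.7% of all genes lower and 3.47%, 5.22% and 7.87% higher, when Pou5f1 was lower as well. Within DMSO, 14 members rose and 2 fell from day 1 to day 7 (28.4% and 26.1% of all genes), the interval over which Pou5f1 and Klf4 fell. Without the viruses, 7 of the 22 members were called higher in MEF_p38i than in MEF and 0 lower, beside 9.73% and 8.15% of all genes. Their median difference was 0.19 against 0 over all genes. Whether the listed genes act on the values of the factors was not tested, and these values do not separate transgene from own transcripts. Of the members at 100 or more in some group, Trim28 went from 267 in MEF to 269 in DMSO and 367 in pre-p38i on day 7, Cbx3 from 194 to 202 and 265, Dnmt1 from 63.0 to 89.0 and 121, Ehmt2 reached 139 in pre-p38i on day 3, and Sumo2 was highest in MEF_p38i at 529.

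**Figure D4:**
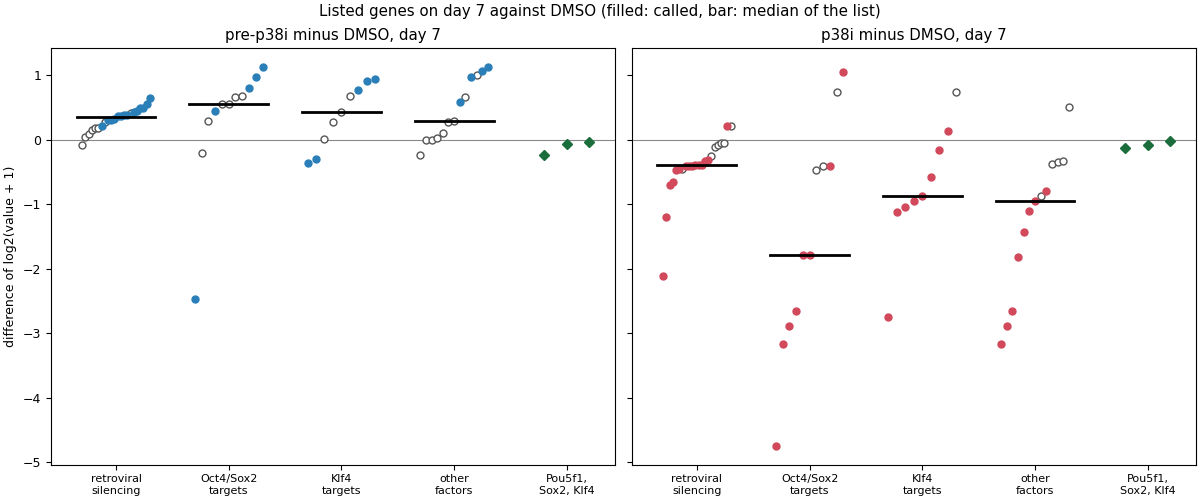
Difference of log2(value + 1) from DMSO on day 7 (vertical axis) for each tested gene of 4 lists and for the 3 factors, in pre-p38i (left) and p38i (right). Filled circles are called, bars are list medians and diamonds are Pou5f1, Sox2 and Klf4; the silencing list lies mostly above 0 on the left and below 0 on the right, while the factors lie at -0.24 to -0.020, and values of genes listed at 0 depend on the added 1.

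On day 7, when the factors lay at -0.24 to -0.020 against DMSO, several of their target genes were called. Of 15 Oct4 and Sox2 targets listed, Utf1, Dppa3, Dppa4 and Tdgf1 fell under the filter. Of the 11 tested, 4 were called higher and 1 lower in pre-p38i than in DMSO, beside 15.4% and 14.5% of all genes, and 1 higher and 7 lower in p38i, beside 16.5% and 17.6%. Nanog, Dppa5a, Esrrb and Sall4 passed the filter mainly through DMSO and pre-p38i on day 7, with means of at most 3.0 elsewhere. Their calls as lower in p38i are therefore not independent of the filter, and the count cannot be read against the share of all genes. Nanog, a core pluripotency factor, stood at 12 and 16 in DMSO, 28 and 28 in pre-p38i, and only 1 and 1 in p38i, with both differences called. Fbxo15 was at 7 and 8 in DMSO and 17 and 18 in pre-p38i (1.12, adjusted p = 0.00913, limma). Dppa5a, at 22 and 30 in DMSO, and Sall4, at 8 and 8, were listed at 0 in both p38i libraries and called lower. Spp1, which encodes the secreted protein osteopontin, moved the other way: it was at 351 and 361 in DMSO, 57 and 71 in pre-p38i (-2.47, adjusted p = 6.11e-14) and higher in p38i (1.05, adjusted p = 1.79e-08). Spp1 is also a macrophage gene, and the summed value of 11 macrophage markers was 229 to 241 in DMSO, 193 to 229 in p38i and 39 to 50 in pre-p38i on that day. The part of these markers in the Spp1 values was not tested.

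Of 9 Klf4 targets, 3 were called higher and 2 lower in pre-p38i (15.4% and 14.5% of all genes), and 1 higher and 7 lower in p38i (16.5% and 17.6%). The epithelial genes Cdh1 (159 and 151 in DMSO, 268 and 263 in pre-p38i, 71 and 70 in p38i), Epcam (182 and 183 in DMSO, 332 and 358 in pre-p38i) and Krt19 (20 and 22, then 43 and 39) led the rises, with differences of 0.77, 0.91 and 0.93. In p38i Cdh1 was lower by 1.13, Ocln, a tight junction gene, was at 5 and 5 against 13 and 10 (-1.05), and Sp5 was listed at 0 in both libraries against 8 and 4. Sp5 passed the filter mainly through DMSO and pre-p38i on day 7, with means of at most 1.5 elsewhere. The cell cycle genes of the list split. Ccnd1 was lower in pre-p38i (-0.37) and higher in p38i (0.13), Cdkn1a, the cell cycle inhibitor p21, was lower in both (-0.30 and -0.16), and Trp53 was lower in p38i (-0.57) and not called in pre-p38i (0.011). Ccnd1 and Cdkn1a reached group means of 1046 in p38i on day 5 and 1225 in DMSO on day 3.

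Among 13 other reprogramming factors tested, 4 were called higher and none lower in pre-p38i on day 7 (15.4% of all genes were called higher and 14.5% lower, 29.9% in all), so that the share called was close to that of all genes. In p38i none was called higher and 8 lower (16.5% and 17.6% of all genes). Besides Nanog, Klf2 was at 12 and 15 in DMSO, 31 and 30 in pre-p38i, but 7 and 6 in p38i, and Tfap2c at 4 and 4 in DMSO and 8 and 11 in pre-p38i (1.06, adjusted p = 0.00747, limma). Esrrb, at 7 and 4 in DMSO, was listed at 0 in both p38i libraries. Nanog, Esrrb, Sall4 and Tfap2c passed the filter mainly through DMSO and pre-p38i on day 7, so their calls as lower in p38i are not independent of it. Myc, the factor that this OKS mixture leaves out, was highest in untreated MEFs (113 and 120) and stood at 43 and 39 in DMSO, 34 and 35 in pre-p38i, but 19 and 18 in p38i, on day 7, where p38i was called lower than DMSO (-1.11, adjusted p = 1.46e-06). On day 1 none of the 13 was called in pre-p38i or in p38i against DMSO, and between p38i and pre-p38i 1 was, Myc, lower in p38i (-0.45, adjusted p = 0.0103), beside 28.2% of all genes.

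The genes whose pattern was most like that of a factor were found by Pearson correlation of log2(value + 1) over the 12 induction group means, among 7355 genes. For Pou5f1 they were Cul7 (r = 0.975), Fam162a (0.970), Pacs1 (0.958), Map9 (0.947) and Kif7 (0.945). Cul7, a cullin scaffold of a ubiquitin ligase, had group means of 94.0 in pre-p38i on day 1 and 55.5 there on day 7. For Sox2 they were Picalm (0.948), Krt90 (0.946), Rab8b (0.941), Hmces (0.930) and Glud1 (0.927), and for Klf4 Rab8b (0.949), Dab2 (0.945), Map9 (0.938), Gm42887 (0.920) and Wnt16 (0.917). The factors correlated with each other at 0.919 (Pou5f1 and Sox2), 0.909 (Pou5f1 and Klf4) and 0.949 (Sox2 and Klf4), so both values of Pou5f1 lay below those of the genes listed for it, and that of Sox2 and Klf4 was about as high as their best match. Over the 24 single libraries r was 0.951 for Pou5f1 and Cul7, 0.899 for Sox2 and Picalm, and 0.910 for Klf4 and Rab8b. It was lower for some others, at 0.872 for Pou5f1 and Map9, 0.846 for Pou5f1 and Kif7, and 0.773 for Klf4 and Gm42887. Map9, Kif7 and Wnt16 had low whole-number values, with highest group means of 9.0, 9.5 and 12.5, so rounding weighs on their r. Several of the genes were expressed before infection, with MEF means of 356 for Picalm and 65.5 for Dab2, against 18.5 for Klf4. The group means share arms and days, so the correlations describe these libraries only.

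The summed values of cell type markers differed between the arms as well. Whether these sums reflect the mix of cells or expression within the cells was not tested. The sum of 10 fibroblast markers was 9763 to 10124 in DMSO, 8741 to 8872 in p38i and 7378 to 7912 in pre-p38i on day 1, and 3644 to 3830, 4839 to 4868 and 2621 to 2753 on day 7. The sum of 6 epithelial markers was 461 to 491 in DMSO, 201 to 220 in p38i and 909 to 949 in pre-p38i on day 7. The macrophage markers summed to 249 to 256 in DMSO, 176 to 186 in p38i and 84 to 91 in pre-p38i on day 1. The 6 neural markers had another order on day 1, at 315 to 335 in DMSO, 443 to 479 in p38i and 184 to 205 in pre-p38i. Of the 11 macrophage markers 9 reached 1 in pre-p38i on day 1 and 8 on day 7. Csf1r and Ptprc were at 0 in both pre-p38i libraries on either day, Ptprc and Fcgr1 were at 0 in both p38i libraries, and Fcgr1 in both DMSO libraries. Leaving the 3 factors out of the library totals changed no call of theirs. The part of cell composition in the factors' values was not tested, and the share of cells that took up the viruses was not analysed here.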

How the data were processed

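The 28 RNA-seq libraries fall into 14 groups of 2, with groups and replicate numbers taken from the sample labels. The score that the authors deposited per gene and library is a whole number, read here from the library totals as TPM rounded down, that is, normalized by the authors for depth and transcript length. The submitters' processing notes name bcl2fastq, Bowtie2 2.2.5, RSEM 1.3.0 and the builds mm10 and hg38, without their roles. Labels and paper differ on library kit and RNA extraction. Depth is unknown. Whether the reference held the transgenes is not given in the sources used here.

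The 3 genes were found by name. Values were compared as log2(value + 1) using lmFit and trended eBayes of limma 3.58.1 (R 4.3.3). Genes needed a mean of 1 or more, which left 13230, and 1 model held all 14 groups, with no replicate block and Benjamini-Hochberg adjustment over all genes, at a threshold of 0.05. The scripts were tested on simulated data. The genes of the lists that are named are the 3 called members with the largest difference on day 7 in either arm, and members with a group mean of 100 or more, of which 1 is not reported here. Factors and lists were chosen with earlier results of these data known. Pattern likeness was computed in genes with a mean of at least 5. Near-identical copies were searched with BLAST 2.17.0+ in GENCODE M21, and promoters are from RefSeq, where all 3 genes matched. Replicate numbers did not pair libraries: correlations of replicate differences between same-day groups were -0.0159 to 0.0513 over 13 pairs. Alternatives were no filter, a minimum mean of 5, 0.1 as pseudocount, only the groups compared, the replicate block, quantile normalization, median-ratio scaling, totals without the 3 factors, coding length, and leaving out each library.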

Additional observations from a re-analysis of the deposited data

Results flagged for a closer look

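Each group has 2 libraries, so single libraries were not tested for standing apart. Listed here are the factors whose change from day 1 to day 7 differed between arms by limma's test of the difference itself.

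For Pou5f1 the change was more negative in pre-p38i than in DMSO by -0.63 on the log2 scale, with both day 1 libraries of pre-p38i above DMSO and both day 7 libraries below. It was less negative in p38i than in DMSO by 0.21, and less negative in p38i than in pre-p38i by 0.84. The order of the last pair turned, since p38i was below pre-p38i in both libraries on day 1 and above it in both on day 7. For Klf4 the change was less negative in p38i than in pre-p38i by 0.49. All 4 values rest on the same 12 libraries of days 1 and 7.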

How the results depend on the processing

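Of 1326 values of the 3 factors recomputed under alternatives, 1196 kept their side of the threshold, 103 lost a call, 25 gained one and 2 reversed. A change of direction was counted as a reversal only where 1 of the fits called the value. Some of the 1196 changed direction uncalled, such as Sox2 in DMSO from day 1 to day 3 (-0.21 to 0.077 with single libraries left out). After quantile normalization Pou5f1 reversed in p38i from day 1 to day 3 (-0.077) and in pre-p38i against DMSO over all days (-0.0094). The replicate number as a block changed the call of Sox2 between p38i and pre-p38i on day 3 (-0.43, adjusted p = 0.0373, limma), and ended the calls of Pou5f1 in p38i from day 1 to day 3 and in pre-p38i against DMSO over all days (adjusted p = 0.0566 and 0.057). It changed no other call of the factors.

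Calls against DMSO were lost for Klf4 in p38i on day 1 with a pseudocount of 0.1 (-0.25), no filter (-0.25), quantile normalization (-0.23) and median-ratio scaling (-0.18), for Klf4 in p38i on day 5 (-0.27) and Pou5f1 in p38i on day 7 (-0.13) without a filter, for the latter also after quantile normalization (-0.10), and for Pou5f1 in pre-p38i on day 3 with median-ratio scaling (0.089). Between p38i and pre-p38i, the call of Sox2 on day 1 was lost with a pseudocount of 0.1 (-0.55), no filter (-0.55) and median-ratio scaling (-0.49), and that of Pou5f1 on day 7 without a filter (0.11). The fall of Sox2 in pre-p38i was not called with a pseudocount of 0.1 (-0.70). Calls were gained for Klf4 in pre-p38i against DMSO on day 1 (0.26) and Sox2 between p38i and pre-p38i on day 3 (-0.57) after quantile normalization, and, with median-ratio scaling, for Pou5f1 in pre-p38i against DMSO on day 5 (-0.15) and in p38i from day 3 to 5 (-0.13) and for Klf4 in the fall of pre-p38i against DMSO (-0.33). The fit without a filter is unreliable, since most of its genes have no spread between replicates.

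Fitting only the groups compared leaves 2 libraries against 2 to estimate the spread, and more for differences of falls and averages over all days. It ended the calls of Pou5f1 in pre-p38i against DMSO on days 1 and 3 (0.39 and 0.16), in p38i against DMSO on all 4 days (-0.34, -0.42, -0.34 and -0.13), between p38i and pre-p38i on day 7 (0.11) and within p38i from day 1 to day 7 (-0.15), and those of Klf4 in p38i against DMSO on days 1, 3 and 5 (-0.25, -0.33 and -0.27), against pre-p38i on day 5 (-0.33) and within DMSO (-0.27). It also ended those of Pou5f1 from day 1 to 3 and 3 to 5 in DMSO, from day 5 to 7 in p38i, in the fall of p38i against DMSO and in pre-p38i against DMSO over all days (adjusted p = 0.122, 0.291, 0.272, 0.0851 and 0.0626). It added Sox2 between p38i and pre-p38i on day 3 (-0.43), in pre-p38i from day 5 to 7, in the fall of pre-p38i against DMSO and of p38i against pre-p38i, and over all days in pre-p38i and p38i against DMSO (adjusted p = 0.0163, 0.0291, 0.00463, 0.00949 and 0.00579). Without the MEF libraries, chosen after seeing the data, Sox2 was called in pre-p38i (0.33, day 1) and p38i (-0.24, day 3) against DMSO, between p38i and pre-p38i on days 3 (-0.43) and 5 (-0.32), and within DMSO (-0.30), and in 7 other tests, while Pou5f1 lost 2 calls.

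Leaving out 1 library moved the differences between arms on a day, and from day 1 to day 7, that lost or gained a call over these ranges: against DMSO, Klf4 in p38i from -0.33 to -0.17 on day 1, -0.47 to -0.20 on day 3 and -0.38 to -0.16 on day 5, Pou5f1 in p38i from -0.17 to -0.079 on day 7, and in pre-p38i on day 3 Pou5f1 from 0.097 to 0.21 and Klf4 from 0.067 to 0.34. Between p38i and pre-p38i they were -0.59 to -0.51 for Sox2 on day 1, -0.44 to -0.21 for Klf4 on day 5 and 0.067 to 0.16 for Pou5f1 on day 7. From day 1 to day 7 they were -0.35 to -0.19 for Klf4 in DMSO and -0.20 to -0.10 for Pou5f1 in p38i. Calls were also lost for Pou5f1 in the fall of p38i against DMSO (0.16 to 0.26), from day 3 to 5 in DMSO (-0.20 to -0.086), from day 1 to 3 (0.10 to 0.13) and 5 to 7 (-0.25 to -0.16) in p38i, for Klf4 from day 5 to 7 in DMSO (-0.39 to -0.31), and for both in pre-p38i against DMSO over all days (0.042 to 0.0715 and 0.077 to 0.14). Except for the fits named, the cause was not tested. Of the lists on day 7, with a minimum mean of 5 the Oct4 and Sox2 targets had 3 called members in pre-p38i and 4 in p38i, and the other reprogramming factors 2 and 3, since fewer genes were tested.

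The number of genes called over the whole table moved by more than 1.5 times in 17 of 31 comparisons when only the groups compared were fitted and in 8 without a filter. With only the groups compared it was 227, 722, 1174 and 2289 on days 1, 3, 5 and 7 for pre-p38i against DMSO (1539, 2729, 3387 and 3952 with all groups) and 930, 1040, 1003 and 2762 for p38i against DMSO (2128, 2833, 3514 and 4509). It was 1946 between p38i and pre-p38i on day 1 (3729) and 990 between the MEF groups (2365). Without a filter it was 952 and 1804 for pre-p38i on days 1 and 3, 1345 for p38i on day 1 and 1559 between the MEF groups. Leaving out 1 library moved it that far in 23 fits, to 857 at the lowest for pre-p38i on day 1.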
